A study of Mus musculus with 2 samples.

Results

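The Bcl2 family genes described here encode the proteins that decide whether a cell keeps its mitochondria intact or dies, and 9 of them were followed in 2 cultures of mouse embryonic stem cells. All 9 were found among 18193 genes that at least 1 probe set of the array names alone, and every one of their 32 probe sets was used. The family was chosen by measured values, since Bcl2l15 had been the gene with the largest negative difference between these same arrays, and the other 8 were then taken by name. The members are Bcl2l15, Bcl2, Bcl2l1, Bcl2l2, Mcl1, Bak1, Bcl2l11, Bid and Bad, and their differences are therefore given as a description, with no test.

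The arrays compare total RNA of embryonic stem cells of the genotype MOF +/+ with that of cells of the genotype MOF-/-, labelled as lacking the histone H4 acetyltransferase Mof (gene symbol Kat8). Both cultures were C57BL/6 lines from embryos of day 3.5 post coitum, at passage 15 to 18, kept with LIF on mouse embryonic fibroblast feeders and then taken through 2 passages without feeders. There was 1 array per genotype, and the number of lines or clones behind each, and how the Mof allele was lost, are not given in the sources used here. No difference below has a replicate error or a p-value. Kat8 itself read 8.06 on the wild-type array and 8.37 on the Mof-null array, and since the position of its probe set relative to the deletion is not given, this does not check the labels. Arrays are named below by those labels.

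Bcl2 family proteins meet at the outer mitochondrial membrane. Guardians such as Bcl2, Bcl-xL (gene Bcl2l1), Bcl-w (Bcl2l2) and Mcl1 bind and hold back the effectors Bak (Bak1) and Bax, which otherwise open the membrane and release cytochrome c. BH3-only proteins, among them Bim (Bcl2l11), Bid and Bad, carry stress signals to guardians and effectors. Bcl2l15, also called Bfk, is a divergent member known mainly from the gastrointestinal tract, and Mcl1 is needed by the mouse embryo around implantation.

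Values are log2 values made by RMA, so 1 unit is a 2-fold difference, and a difference is always the Mof-null value minus the wild-type value. A gene took its brightest probe set, the one with the highest mean over both arrays, and was called expressed when its higher value reached 6.02, the median of all values. All 9 members were expressed by that rule, and 7 of them were above 6.02 on both arrays. Bcl2l15 and Bcl2 passed only through the wild-type array and so could pass only by being higher there. The only spread that can be measured is that between expressed probe sets of the same gene, a pooled SD of 0.33 over 5362 genes and of 0.39 over the 8 members with several probe sets. This spread contains no variation between cultures.

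On their brightest probe sets, 2 guardians (Bcl2l1 and Bcl2l2) and the effector Bak1 were 1.70-fold to 1.89-fold lower on the Mof-null array, Bcl2l15 and Bcl2 read below the level filter there, Mcl1 (0.05) and Bid (0.39) were level or slightly higher, and the BH3-only genes Bcl2l11 and Bad were slightly lower. Of the 9 members, 2 were at least 2-fold lower, where 11.9% of all 12015 expressed genes were, and 0 were at least 2-fold higher, where 5.09% were. Bcl2l15 is 1 of those 2 by choice, and Bcl2 passed the filter only through the array where it is high, so nothing is read from this count, nor from the direction and median of the members that follow. By direction, 7 members were lower and 2 higher, while 43.0% of expressed genes were lower. The median difference of the members was -0.77, or -0.58 without Bcl2l15, and that of all expressed genes 0.10. When each gene took the average over its probe sets, which takes out Bcl2, the members' median was -0.38, and with a filter at percentile 75, which takes out Bcl2l15 and Bcl2, it was -0.40. Counted by probe set, 25 of the 32 were expressed, of which 16 were lower and 9 higher, while 43.1% of all expressed probe sets were lower. Among these 25, 2 were at least 2-fold lower (11.1% of all expressed probe sets) and 0 at least 2-fold higher (4.49%). The Bcl2l15 probe set, the brightest of Bcl2, 1426191_a_at of Bcl2l1 and 1425716_s_at of Bak1 passed the filter only through the wild-type array. They could count only as lower, so nothing is read from the counts by probe set.

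**Figure D1:**
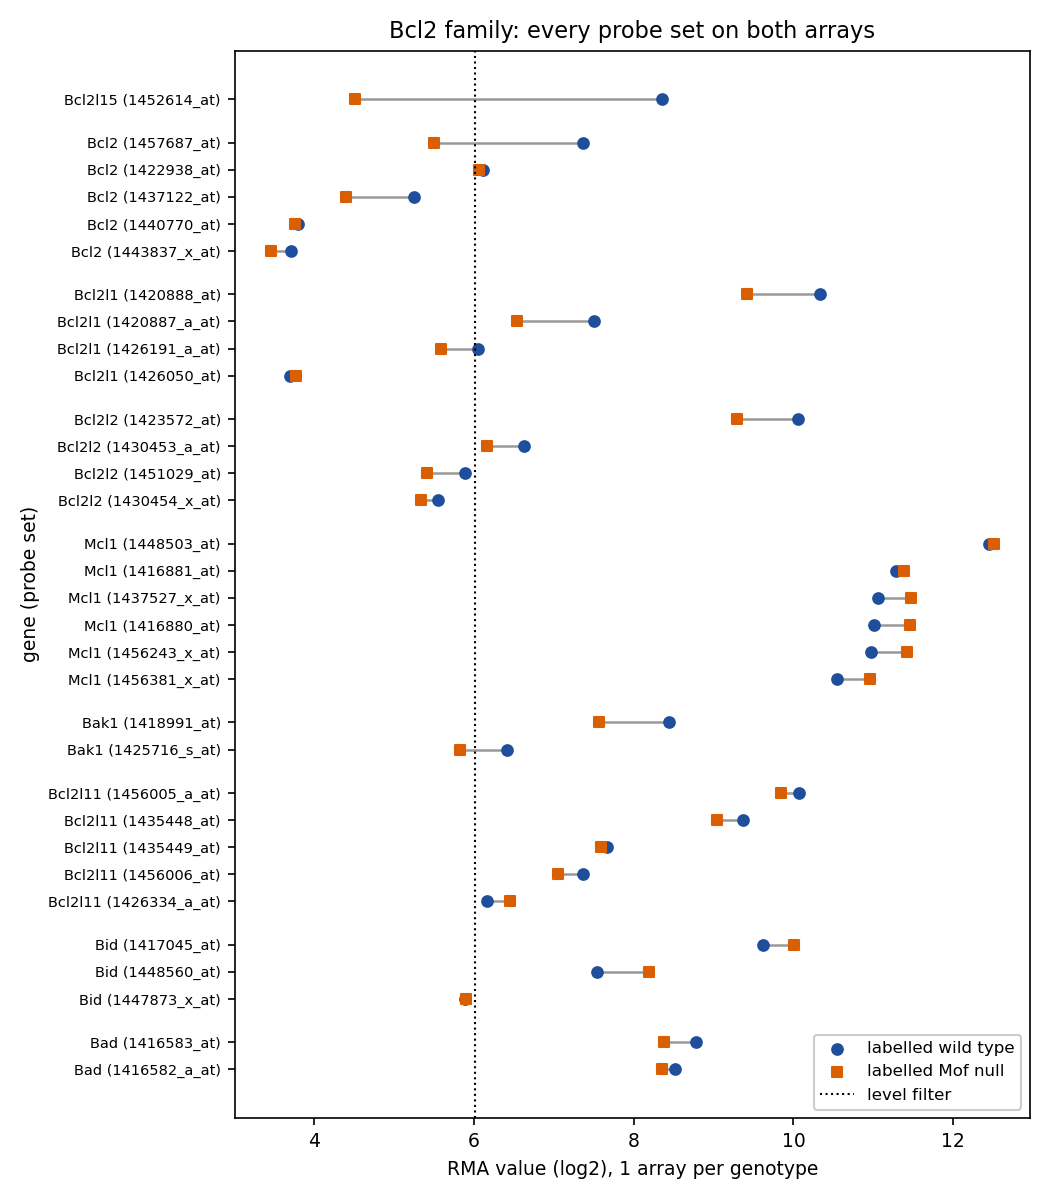
RMA values (log2, x axis) of all 32 probe sets of the 9 members (rows), as circles for the array labelled wild type and squares for the array labelled Mof null, with the level filter of 6.02 dotted. Bcl2l15 and the top Bcl2 row cross the filter, at 8.36 against 4.51 and 7.37 against 5.50. So do 1426191_a_at of Bcl2l1, at 6.05 against 5.59, and 1425716_s_at of Bak1, at 6.41 against 5.82. All 6 Mcl1 rows lie to the right of the filter with the square on the right of the circle.

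Bcl2l15 (Entrez gene 229672) was read by a single probe set, 1452614_at. Its value was 8.36 on the wild-type array and 4.51 on the Mof-null array, a difference of -3.85 or 14.4-fold. The lower value equals, to 2 decimals, the first quartile of that array (4.51), whereas the higher value was at or above 74.0% of the values of the wild-type array. The fold depends on how far the lower value stands above background, which these values do not give. No other probe set was there to check it, and 0 of the 12015 expressed genes had a lower difference, which is how the gene came to be chosen.

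The genes whose pair of values lay nearest to that of Bcl2l15 were looked for over the 2 arrays, by straight-line distance in log2 units. They were Plau, the urokinase gene, at 8.02 and 4.76 (distance 0.42), the zinc finger gene Zfp521 at 8.04 and 5.13 (0.70), the chemokine genes Ccl12 at 7.98 and 5.10 (0.70) and Ccl3 at 7.69 and 4.95 (0.80), and the carboxylesterase gene Ces2g at 7.65 and 4.97 (0.84). With 2 arrays this likeness says only that the genes had similar values, of which the first of each pair is the wild-type one.

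Because Bcl2l15 is known from the gut, and because feeder fibroblasts had been present, marker lists were set beside it. Of 8 gut epithelium markers (Vil1, Cdh17, Lgals4, Krt20, Fabp1, Tff3, Cdx2 and Cdx1), 6 were below the level filter on both arrays, and their wild-type values ran from 3.77 to 6.39 and their Mof-null values from 3.73 to 6.32. Of 14 fibroblast markers, 12 were lower on the Mof-null array by 2-fold or more. Their median difference was -1.96, and all 14 were above the level filter on both arrays, with values from 9.61 to 14.3 on the wild-type and 7.62 to 13.1 on the Mof-null array. Of 12 macrophage markers, 11 were expressed and 10 of these were lower by 2-fold or more, with a median of -2.15. Ptprc, at 8.10 on the wild-type and 5.33 on the Mof-null array, and Itgam, at 6.64 and 4.81, passed the filter only through the former. These genes could therefore count only as lower. Of 12 pluripotency markers, 12 were higher, with a median of 0.68, but only 1 of them by 2-fold or more. Over all expressed genes, 11.9% were lower and 5.09% higher by 2-fold or more, and 56.7% were higher by any amount. In such bulk RNA, fewer cells of a type and less RNA per cell cannot be told apart, and the part of the fibroblast and macrophage RNA in the differences of the members was not tested.

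The sequences upstream of the members were read for features that played no role in choosing them. Each window is the 250 bases before a RefSeq start site in GRCm38.p6, in which CpG dinucleotides, the sites of DNA methylation in mammals, are in capitals. The windows shown are those of the member with the largest negative difference, the other member past 2-fold, and Mcl1, whose probe sets were all higher. For Bcl2l15 the RefSeq gene begins upstream of this start, so other starts lie outside the window. The Bcl2l15 window is chr3:103832446-103832695 on the plus strand, that of Bcl2 chr1:106714291-106714540 on the minus strand and that of Mcl1 chr3:95658471-95658720 on the plus strand.
Bcl2l15: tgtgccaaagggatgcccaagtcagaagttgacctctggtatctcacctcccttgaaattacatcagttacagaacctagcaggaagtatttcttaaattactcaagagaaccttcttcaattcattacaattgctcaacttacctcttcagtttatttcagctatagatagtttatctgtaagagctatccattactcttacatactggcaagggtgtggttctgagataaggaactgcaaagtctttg
Bcl2: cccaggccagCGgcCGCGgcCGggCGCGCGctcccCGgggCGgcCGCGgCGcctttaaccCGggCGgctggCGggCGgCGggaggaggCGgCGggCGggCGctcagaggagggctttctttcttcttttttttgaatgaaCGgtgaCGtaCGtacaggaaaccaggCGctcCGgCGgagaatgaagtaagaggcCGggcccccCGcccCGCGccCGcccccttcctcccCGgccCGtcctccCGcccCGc
Mcl1: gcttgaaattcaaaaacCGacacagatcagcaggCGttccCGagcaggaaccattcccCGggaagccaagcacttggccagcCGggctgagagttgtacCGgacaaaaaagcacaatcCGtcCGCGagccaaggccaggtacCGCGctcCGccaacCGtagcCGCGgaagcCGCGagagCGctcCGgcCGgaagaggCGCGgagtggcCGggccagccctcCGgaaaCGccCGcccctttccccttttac

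The Bcl2l15 window held 0 CpG, which was true of 7.87% of all 32851 windows, and its GC content was 38.8%. The window of Bcl2 held 36 CpG at a GC content of 74.8%, a count reached by 2.58% of windows, and that of Mcl1 held 26. Among the 13 windows of the 9 members, the only other one with 0 CpG was 1 of the 3 windows of Bcl2l1, whose others held 11 and 12. The remaining members lay between the 8 CpG of Bak1 and the 30 of one Bcl2l11 window, against a median of 6 over all windows. Bcl2l15 stands at the lowest count, shared with that Bcl2l1 window, and Bcl2 at the highest. A link between these counts and the differences was not tested. Of short promoter motifs searched on both strands, the GC box GGGCGG was in 7 windows of 6 members (32.7% of all windows hold it), and CCAAT was in 3 windows, of Bcl2l11 and Bad (33.8%). TATAAA and the AP-1 motif TGANTCA were in 0 member windows, with shares over all windows of 12.4% and 6.75%. None of the 4 motifs was in the Bcl2l15 window, which says only that these letters are not in these 250 bases.

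**Figure D2:**
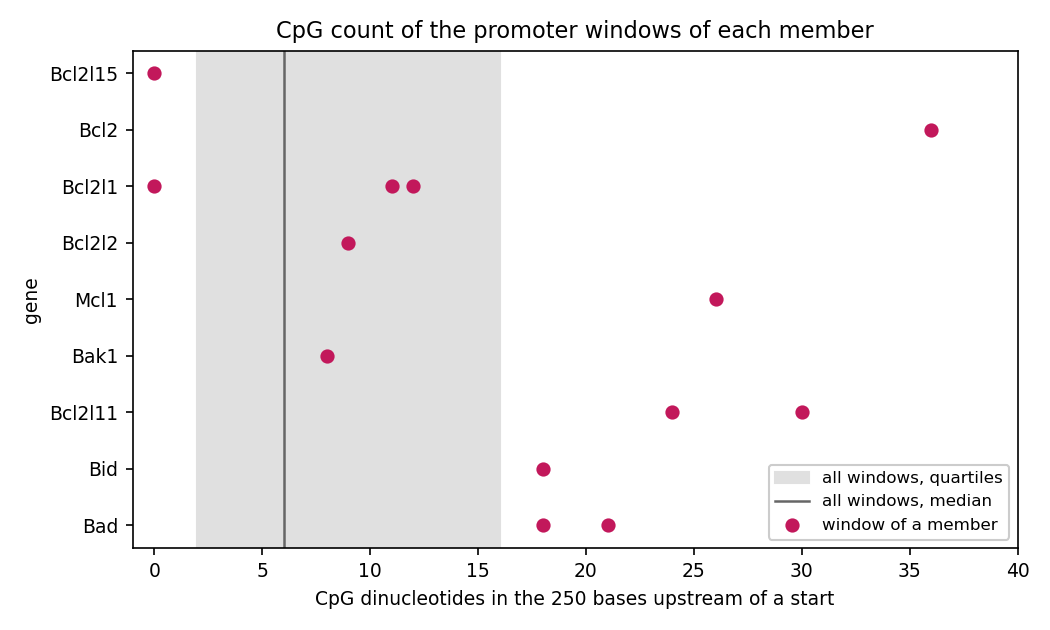
Number of CpG dinucleotides (x axis) in each 250-base window upstream of a start of the 9 members (rows), with the median of 6 and the quartiles of 2 and 16 over all 32851 windows as line and shading. Bcl2l15 stands at 0 and Bcl2 at 36, and Bcl2l1 has windows at 0, 11 and 12.

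Among the guardians, the call for Bcl2 (Entrez gene 12043), the founding member of the family, turned on 1 of 5 probe sets. Its brightest, 1457687_at, read 7.37 and 5.50 on the wild-type and Mof-null array, a difference of -1.87 or 3.65-fold. The next, 1422938_at, read 6.11 and 6.07, a difference of -0.04, although its mean over both arrays, 6.09, was close to the 6.44 of the brightest. The other 3 lay under the level filter on both arrays, with differences of -0.85, -0.25 and -0.04. All 5 probe sets were lower on the Mof-null array, but only 2 of them by more than the 0.33 SD between probe sets, and the mean over all 5 was -0.61, at a mean level below the filter.

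Bcl2l1 (Entrez gene 12048), which encodes Bcl-xL, was lower on each of its 3 expressed probe sets. The brightest, 1420888_at, went from 10.34 on the wild-type array to 9.42 on the Mof-null array (-0.92, 1.89-fold). The second, 1420887_a_at, went from 7.51 to 6.53 (-0.98, 1.97-fold), just short of 2-fold, and 1426191_a_at from 6.05 to 5.59 (-0.47). The probe set 1426191_a_at passed the filter only through the wild-type array, so it could count only as lower. The remaining probe set, at 3.69 and 3.78, was below the filter. The brightest passed 2-fold, at -1.02 and -1.06, when differences were centred on the median gene or corrected for a trend with level, and the mean over all 4 probe sets was -0.57.

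Bcl2l2 (Entrez gene 12050), which encodes Bcl-w, was lower on all 4 probe sets. Its brightest, 1423572_at, read 10.06 on the wild-type and 9.29 on the Mof-null array (-0.77, 1.70-fold), and the second expressed one, 1430453_a_at, 6.62 and 6.17 (-0.45). The 2 probe sets below the filter differed by -0.48 and -0.21. The brightest probe set thus gave the largest difference.

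Mcl1 (Entrez gene 17210), a guardian with a very short-lived protein, was the exception among them. All 6 of its probe sets were higher on the Mof-null array, by 0.05 to 0.45. The brightest, 1448503_at, read 12.45 on the wild-type and 12.51 on the Mof-null array, a difference of 0.05 that turned to -0.05 on centring and -0.04 on trend correction. Another, 1416881_at, differed by 0.09, and the other 4 lay close together, between 0.42 and 0.45 (1.34-fold to 1.36-fold), from wild-type values of 10.54 to 11.06. The mean over all 6 probe sets was 0.31, so the gene was level or up to 1.36-fold higher depending on the probe set.

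The effector Bak1 (Entrez gene 12018) was lower on both of its probe sets. The brightest, 1418991_at, went from 8.44 on the wild-type array to 7.57 on the Mof-null array (-0.87, 1.83-fold), and 1425716_s_at from 6.41 to 5.82 (-0.59, 1.51-fold). The latter passed the filter only through the wild-type array, so it could count only as lower. Both differences were larger than the spread between probe sets and short of 2-fold. The other effector that shares its role, Bax, is not analysed here.

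The BH3-only members stayed short of 2-fold, and did not differ in 1 direction. Bcl2l11 (Entrez gene 12125), which encodes Bim, read 10.07 and 9.84 on its brightest probe set, 1456005_a_at (-0.23). Another 3 of its 5 probe sets were lower, by 0.08 to 0.33, and the dimmest, 1426334_a_at, was higher by 0.29, so that all 5 lay within the 0.33 SD between probe sets. Bid (Entrez gene 12122), which caspase-8 cleaves to reach mitochondria, was higher on both expressed probe sets, from 9.62 on the wild-type to 10.01 on the Mof-null array for 1417045_at (0.39, 1.31-fold) and from 7.54 to 8.18 for 1448560_at (0.64, 1.56-fold). Both Bid differences were larger than the 0.33 SD. The remaining Bid probe set lay below the filter and differed by 0.01. Bad (Entrez gene 12015), which growth factor kinases silence by phosphorylation, read 8.78 and 8.38 on 1416583_at (-0.40) and 8.51 and 8.35 on 1416582_a_at (-0.16). Only the first of these Bad differences was larger than the 0.33 SD.

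**Figure D3:**
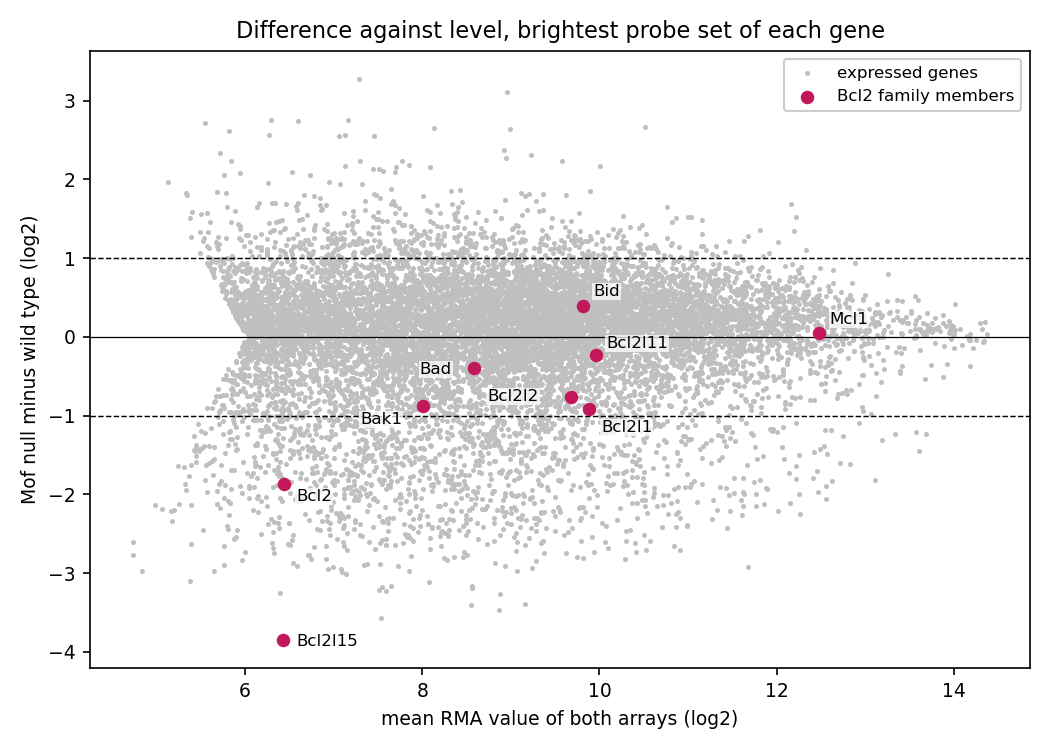
Difference between the arrays (Mof null minus wild type, log2, y axis) against the mean value of both arrays (log2, x axis) for the brightest probe set of each of 12015 expressed genes (grey) and of the 9 members (red), with 2-fold marked by dashed lines. Bcl2l15 at -3.85 and Bcl2 at -1.87 lie below the lower line at the dim end of the scale, and Bcl2l1, Bak1 and Bcl2l2 lie just above it.

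Further genes of the family were also described by their counts. Of 13 further family genes found, 12 were expressed, of which 9 were higher and 3 lower on the Mof-null array, while 56.7% of all expressed genes were higher. Their median was 0.49, against 0.10 for all expressed genes. Bik, at 5.73 on the wild-type and 6.24 on the Mof-null array, passed the filter only through the latter. It could therefore count only as higher, and nothing is read from the direction count or median of these genes. Past 2-fold were 2, both higher, where 5.09% of expressed genes were that much higher and 11.9% that much lower. Bnip3, a mitochondrial BH3-like protein induced by low oxygen and involved in mitophagy, read 8.92 on the wild-type and 11.09 on the Mof-null array (2.17, 4.51-fold). Bmf, a BH3-only protein tied to the cytoskeleton, read 6.87 and 8.34 on its brightest probe set (1.47, 2.77-fold), and its other 2 probe sets were below the filter with differences of 0.23 and 0.64. Among the others, the effector-like Bok differed by 0.31, Bcl2l12 by 0.75 (0.09 on another expressed probe set), Bcl2l13 by 0.18 (0.46 on another), Bcl2l14 by 0.61, and the BH3-only genes Bik by 0.52 and Hrk by 0.49 (0.86 on another). The second probe sets of Bcl2l12 and Hrk also passed the filter only through the Mof-null array. The p53-induced BH3-only genes Bbc3 (Puma) and Pmaip1 (Noxa) differed by -0.30 and -0.37, and Becn1, an autophagy protein with a BH3 domain, by -0.40 (-0.20 on another). Bax, Bnip3l and the Bcl2a1 genes are not analysed here.

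Among genes that act on the members, Casp8 and Akt1 were past 2-fold. They are 2 of 19 regulators found, both lower, where 11.9% of all expressed genes were that much lower and 5.09% that much higher, and the median of the regulators was 0.0046. Casp8, the caspase that cleaves Bid, went from 10.34 on the wild-type array to 8.01 on the Mof-null array on its only probe set (-2.32, 5.01-fold). Akt1, a kinase that phosphorylates Bad, went from 10.31 to 8.91 (-1.40, 2.64-fold) and on a second probe set from 9.04 to 7.93 (-1.11), while another expressed one read 6.51 on both arrays. The kinases Pim1, Pim2 and Pim3, which also phosphorylate Bad, differed by 0.81, 0.36 and 0.87. On a second expressed probe set, Pim1 differed by 0.48 and Pim3 by 0.996, just short of 2-fold. The 14-3-3 genes Ywhab, Ywhae, Ywhag, Ywhah, Ywhaq and Ywhaz, whose proteins hold phosphorylated Bad in the cytosol, lay between -0.41 and 0.00 on their brightest probe sets. Expressed probe sets ran from -0.58 to 0.11 for Ywhae, from -0.39 to 0.21 for Ywhag and from -0.29 to 0.60 for Ywhaz. Sfn, the sigma member of the 14-3-3 genes, differed by 0.58. For Mcl1 turnover, the deubiquitinase gene Usp9x differed by 0.18 on its brightest probe set and by up to 0.79 on other expressed ones. The ubiquitin ligase gene Huwe1 differed by 0.38, with expressed probe sets from -0.21 to 0.86, and Fbxw7 by -0.07, with another at -0.22. Of the FoxO transcription factors that activate Bcl2l11, Foxo3 differed by -0.36 (-0.60 on another expressed probe set) and Foxo1 by 0.49. Of 11 genes of the mitochondrial step and below, 0 passed 2-fold in either direction. Their median was 0.08. The gene of cytochrome c, Cycs, differed by 0.08 (0.29 on another expressed probe set) and Vdac2, a channel that holds Bak at the mitochondrion, by -0.02. Diablo, which antagonises caspase inhibitors, differed by 0.65. The sign turned on the probe set for the caspase inhibitor gene Xiap, at -0.24 on the brightest and 0.26 and 0.66 on other expressed ones, and for the apoptosome gene Apaf1, at -0.22 and 0.39. The Xiap probe set at 0.66 passed the filter only through the Mof-null array. Trp53 is not analysed here.

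**Figure D4:**
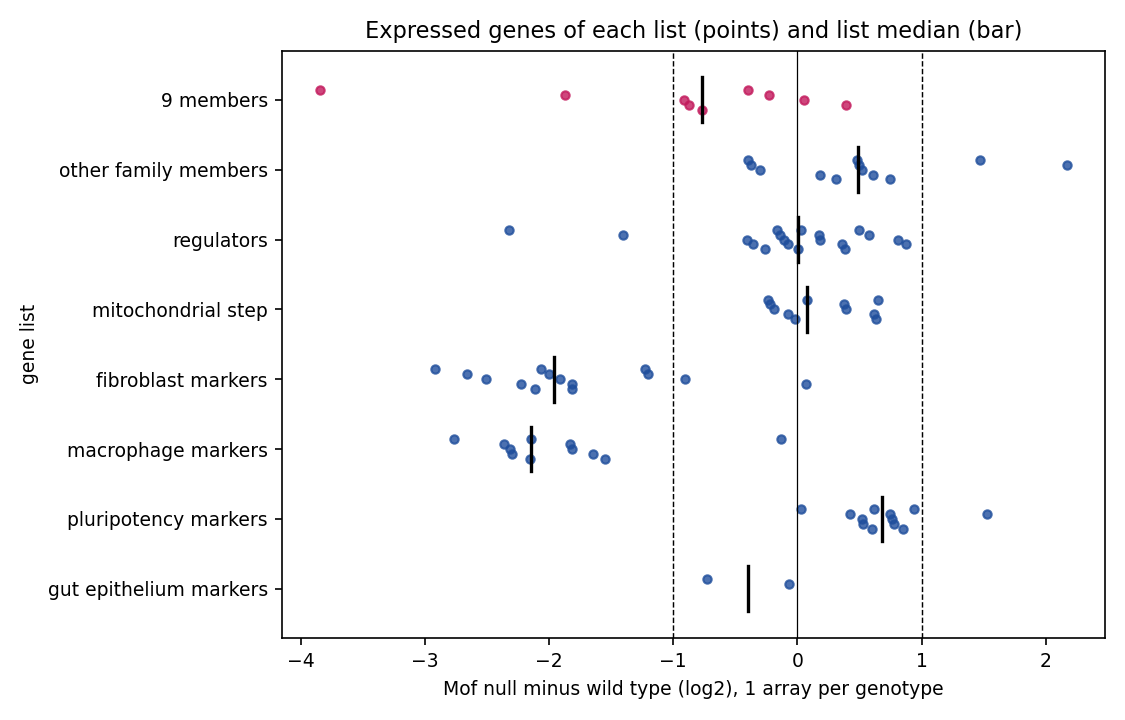
Differences (Mof null minus wild type, log2, x axis) of the expressed genes of each list (points, 1 gene each, shifted up or down only to separate them) with the list median as a bar and 2-fold dashed. The members have a median of -0.77 (-0.58 without Bcl2l15, which was chosen for its difference), the other family genes 0.49, the fibroblast and macrophage markers -1.96 and -2.15 and the pluripotency markers 0.68.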

How the data were processed

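Total RNA of 2 cultures, 1 per genotype, was hybridised to 1 array each. The deposited table holds log2 values of 45101 probe sets, made by the authors with RMA (affy, R 2.10.0), per the submitters' processing notes. The log2 scale was read from the values (2.77 to 14.7). RMA quantile-normalizes the arrays, whose sorted values differed by at most 0.13, so a shift of most transcripts one way cannot be seen. Array number limits the precision.

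Names came from the platform annotation, in which 34958 name 1 symbol, 932 several, and 9211 are not listed. The 34945 with 1 symbol and 1 Entrez gene that are not controls were used (34741 matched the RefSeq gene table of GRCm38.p6), and 0 named a member among several genes. The main choices (brightest probe set, filter at percentile 50, threshold of 2-fold) were varied as described in the closing part. No test was run, as each genotype has 1 array. The members, gene lists and rules were chosen with earlier results of these data known. The named genes are the 9 members, the genes of the lists, the 5 nearest to Bcl2l15 in value and its 3 neighbouring genes on each side. All 9 members matched the RefSeq promoter table. The counting code was run on simulated data with planted differences well past the threshold, which checks the code only and not the calls above. Python 3.11.15, numpy 2.4.6, pandas 2.3.3, statsmodels 0.14.6 and matplotlib 3.10.9 were used.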

Additional observations from a re-analysis of the deposited data

How the results depend on the processing

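Of 9 members, 8 kept the sign of their difference under the mean of all probe sets, the removal of _s_at and _x_at probe sets, centring on the median gene (which lowers every difference by 0.10), a lowess correction on level (span 0.3) and quantile normalization of the table, wherever a value could be had. Mcl1 did not, running from -0.05 to 0.31. Bcl2l15 ran from -3.95 to -3.85, and Bcl2 from -1.97 to -1.84, but Bcl2 has no value by the mean, where its level is below the filter. The count of members at least 2-fold lower was 2, and became 1 with the mean of all probe sets, 0 with a filter at percentile 75, 5 at 1.5-fold and 1 at 4-fold, and 3 with centring and with the lowess correction, where Bcl2l1 passed 2-fold. The stricter filter leaves 7 members and takes out Bcl2l15 and Bcl2. The count at least 2-fold higher stayed 0 in each. The median of the members was -0.38 with the mean of all probe sets and -0.40 with the stricter filter, against -0.77. Among all expressed genes, 2-fold was passed by 926 lower and 347 higher ones with the stricter filter, 2303 and 2084 were past 1.5-fold, and 389 and 35 past 4-fold, against 1429 and 611. No array could be left out, since each genotype has 1.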

Other observations

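The genes next to Bcl2l15 on the chromosome, by their order in the RefSeq gene table, did not share its size of difference. On one side, Ap4b1 differed by -0.24, Dclre1b, a DNA repair nuclease gene, by 0.93 and Hipk1 by -0.36. On the other side, Rsbn1 differed by 0.28 and Phtf1 by -0.29. The nearest gene on that side, Ptpn22, a phosphatase of lymphoid and myeloid cells, read 5.49 on the wild-type array and 4.35 on the Mof-null array (-1.14), below the level filter on both.

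Upstream windows without CpG, like that read for Bcl2l15, were also counted over expressed genes. Of 80 expressed genes whose every upstream window held 0 CpG, 16 (20%) were lower and 4 (5%) higher by 2-fold or more. Of 9637 with a CpG in a window, 1058 (11.0%) were lower and 496 (5.15%) higher by 2-fold or more. Over all expressed genes these shares were 11.9% and 5.09%. The median differences of these groups were 0.05 and 0.11. Bcl2l15, chosen for its difference, is itself 1 of the 16. These counts come from 1 array per genotype, and a link between CpG and difference was not tested.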
